A study of Mus musculus with 4 samples.

Results

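The Myc, Max and Mxd factors were followed in Dll1 mutant neurospheres and in wild-type ones, Dll1 being a Notch ligand. The members were the non-control probes whose gene name in the scan files was Myc, Mycn, Mycl1, Max, Mxd1, Mxd3, Mxd4, Mxi1 or Mnt. They came to 16 probes of 41174, for 8 of the 9 named genes, and no probe bore the name Mycl1. All 16 passed the filter on dim probes. Mutant RNA came from a pair of lines, Dll1-3 and Dll1-5, and each of the 4 arrays set one of them in one colour against wild-type RNA in the other. All groups were neurospheres, floating cultures of neural stem cells and their progeny, kept in serum-free medium supplemented with EGF, on a background of 129/Sv mice crossed with C57BL/6. A line was hybridised on 2 arrays in opposite dye orientations, its RNA was pooled from 3 preparations, and the arrays of a line were counted as 1 replicate, so that n = 2 lines. The kind of mutation in each line and the age of the animals are not given in the sources used here, and whether both lines were set against the same wild-type pool is not settled there.

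Myc, Mycn and Mycl are basic helix-loop-helix leucine zipper proteins that bind DNA as dimers with Max, at E-box sequences of which CACGTG is the best known, and raise transcription of genes for growth and division. Mxd1, Mxd3, Mxd4, Mxi1 and Mnt also dimerise with Max, bind the same sequences and recruit the Sin3 corepressors, so that they oppose Myc. In neural development Myc family genes are expressed in dividing progenitors and Mxd genes rise as cells leave the cycle. Notch receptors act on genes through the DNA-binding protein RBPJ, and Myc is a known direct target of activated Notch1 in T-cell leukaemia.

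Upstream sequence is shown for the members that hold a match to a factor named above, to show where the network's own binding sequence lies in its members. RefSeq windows of assembly GRCm38.p6, taken 250 bases upstream of each annotated start, were given for 8 of the 9 named genes, and not for Myc. Motifs were searched on both strands: CACGTG, the Myc-Max E-box; TGGGAA or its complement TTCCCA, a core of the RBPJ site; and TTTNGCGC or its complement GCGCNAAA, a site of the E2F cell cycle factors. The E-box was in 2 of these 8 genes, Mxd4 and Mnt, against 8.72% of 13954 tested genes with a window. Mxd4 is shown from 250 bases upstream to its outermost annotated start, at chr5:34187711-34187960 on the minus strand, with the E-box in capitals.
Mxd4: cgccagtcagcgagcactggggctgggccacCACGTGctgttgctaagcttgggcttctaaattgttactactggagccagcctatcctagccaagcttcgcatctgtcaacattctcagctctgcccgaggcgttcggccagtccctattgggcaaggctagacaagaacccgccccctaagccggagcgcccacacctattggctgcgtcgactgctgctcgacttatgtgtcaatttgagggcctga
For Mnt the first base of the E-box lies at position -123 from an inner annotated start. That E-box runs across the outermost annotated start, so the stretch shown lies partly within the gene. The 30 bases around it (chr11:74830789-74830818, plus strand) follow with the E-box in capitals.
Mnt: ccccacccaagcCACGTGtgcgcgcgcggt
Mycn held 3 E2F matches, of which the first 2 overlap, to a motif found in 1.91% of tested genes, and they are in capitals in its 30 bases at chr12:12941997-12942026 on the minus strand, where the last match runs to the end.
Mycn: aatggctTTTGGCGCGAAAggcTTTGGCGC
The RBPJ core was in Mxd3 and Mxi1, 2 of 8 genes against 23.7% of all tested genes. It is in capitals in the windows at chr13:55329806-55329835 on the minus strand and chr19:53329373-53329402 on the plus strand. Both stretches are upstream of an inner annotated start and lie within the bounds of the gene. Mxi1 held a further match in another of its windows, which is not shown.
Mxd3: gggcggacggggTTCCCAtgggcggggcgg
Mxi1: gcgggactacatTTCCCAgggggcagcgga
Such matches are letters in a window. No binding was measured.

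Dll1 itself checked the labels, with log2 ratios of mutant over wild type of -3.31 and -3.22 in Dll1-3 and -1.65 and -1.64 in Dll1-5. The mutants thus had less Dll1 signal throughout, and Dll1-5 kept more of it than Dll1-3. Detected probes made up 79.9% to 81.9% of a channel, and having only 4 arrays limits how precise any value is. Every ratio below is log2 of mutant over wild type, so that 1 stands for 2-fold higher and -1 for 2-fold lower in the mutant. For a single line ± gives how far its arrays lie on either side of the line mean, and for both lines the SD is that between the line means. Probe positions are those of the array files, which name no genome build. They were used only to tell probes of a gene apart, and exons or UTRs were not assigned to them.

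Myc, the founding member and an activator of growth genes, had higher signal in mutant than in wild-type neurospheres on every array. The wild-type RNA of an array is named here by the line it was hybridised beside. The brightest Myc probe (chr15:62002138-62002198) had normalised log2 signals of 12.39 and 12.46 in Dll1-3 and 12.90 and 12.85 in Dll1-5, against 10.85 and 10.84 in the wild type beside Dll1-3 and 10.73 and 10.87 in that beside Dll1-5. All 4 mutant signals were above all 4 wild-type signals, and the wild-type signals lay close together. The ratios were 1.54 and 1.63 in Dll1-3 (mean 1.58 ± 0.05, 2.99-fold) and 2.17 and 1.97 in Dll1-5 (mean 2.07 ± 0.10, 4.21-fold). Over both lines Myc averaged 1.83 (SD 0.35, n = 2 lines; limma adjusted p = 0.0756), and it did not pass the adjusted threshold of 0.05. A second Myc probe (chr15:62002039-62002098) had 1.68 and 1.58 in Dll1-3 and 2.19 and 1.96 in Dll1-5. The dimmest of the 3 (chr15:62001547-62001606) had smaller ratios of 0.71 and 0.49 in Dll1-3 and 1.01 and 0.65 in Dll1-5, so all 3 probes were higher on all 4 arrays and differed in size. In RNA from whole cultures, fewer cells of a type and less RNA per cell cannot be told apart, and this holds for every result here.

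Mycn, the Myc paralogue that drives expansion of neural progenitors, was near background. Its brighter probe (chr12:12294729-12294788) had log2 signals of 7.24 and 6.57 in Dll1-3 and 6.14 and 5.93 in Dll1-5, against 6.27 and 5.95 in the wild type beside Dll1-3 and 6.00 and 6.02 in that beside Dll1-5. Mutant RNA was well above background on both Dll1-3 arrays, and wild-type RNA on none of the 4. In Dll1-3 the plain fold of mutant over wild type was 1.74, taken against wild-type signals that were not well above background. In Dll1-5 neither channel was well above background on either array, and no fold is given. This probe averaged 0.41 over both lines (SD 0.55, n = 2 lines; limma adjusted p = 0.428). It passed the filter through Dll1-3 mutant RNA alone, and its Dll1-5 ratios set undetected channels against each other. No conclusion is drawn from the Dll1-3 fold, that mean or its test. The size of this probe's ratios depends on the background correction: the scanner software's own ratios for it were 2.84 and 2.54 in Dll1-3 and 0.18 and 0.19 in Dll1-5. A second probe (chr12:12295848-12295907) did not share the Dll1-3 difference, with 0.00 and -0.20 in Dll1-3 and 0.26 and -0.16 in Dll1-5, and it was well above background on 3 of 4 arrays in mutant and in wild-type RNA.

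Mycl, the third paralogue, is listed on the array as Lmyc1 and so is no member by name. It was identified through its RefSeq accession and is given here as a neighbour of the members. The Lmyc1 probe (chr4:122029418-122029477) had ratios of -1.94 and -1.93 in Dll1-3 and -1.09 and -1.33 in Dll1-5, and averaged -1.57 (SD 0.51, n = 2 lines; limma adjusted p = 0.0910). Myc and Mycl thus stood apart, with Myc above wild type and Mycl below it in both lines. For Mycn, near background, 1 of 2 probes had a higher signal in Dll1-3. That probe passed the filter through Dll1-3 mutant RNA alone, so no direction is concluded for Mycn.

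Max, the shared dimer partner of the activators and the repressors, stayed close to wild type in Dll1-3 and lay below it in Dll1-5. Its single probe (chr12:73793884-73793943) had log2 signals of 10.39 and 10.22 in Dll1-3 and 9.87 and 9.95 in Dll1-5, against 10.33 and 10.33 in the wild type beside Dll1-3 and 10.37 and 10.40 in that beside Dll1-5. Mutant and wild-type signals overlapped in the first line and did not in the second. The ratios were 0.06 and -0.11 in Dll1-3 and -0.50 and -0.45 in Dll1-5, with a mean of -0.25 (SD 0.32, n = 2 lines; limma adjusted p = 0.440).

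**Figure D1:**
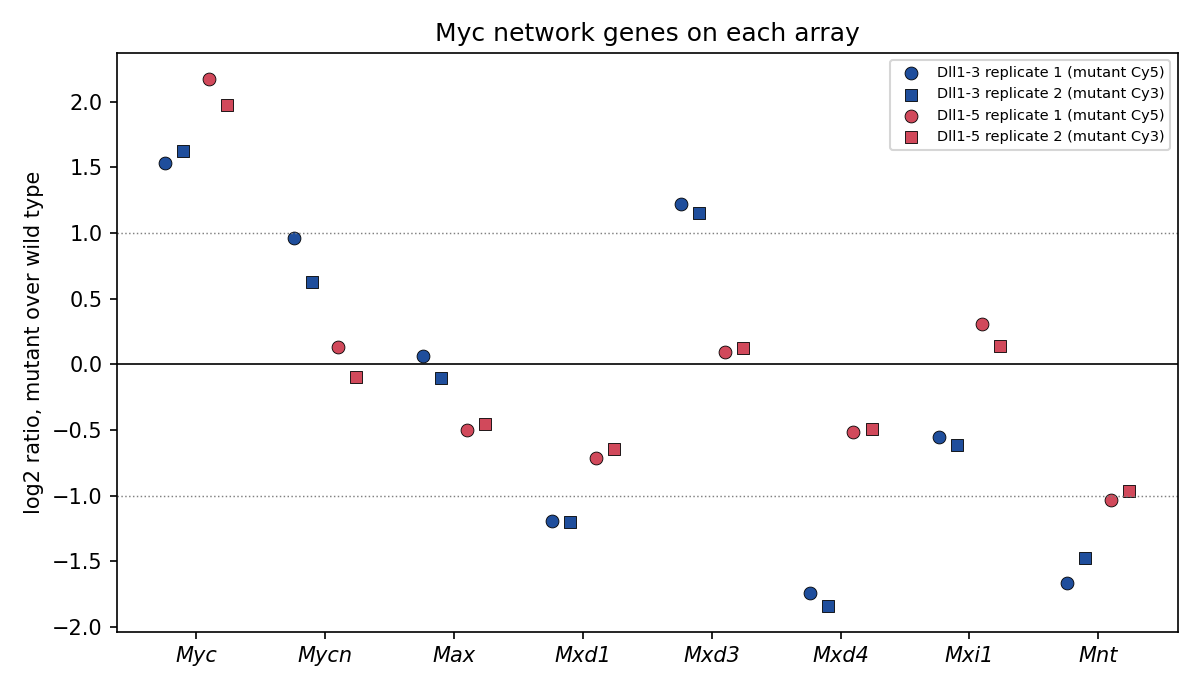
Log2 ratio of mutant over wild type of each gene on each of the 4 arrays (circles, mutant in Cy5; squares, mutant in Cy3; blue, Dll1-3; red, Dll1-5), by the probe that represents the gene; dotted lines mark 2-fold. Myc lies above 2-fold on all 4 arrays, while Mxd1, Mxd4 and Mnt lie below 0 on all 4, and Mxi1 lies on opposite sides of 0 in the lines.

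Among the Mxd repressors and Mnt, signal was lower than wild type in both lines for Mnt, Mxd1 and Mxd4, higher for Mxd3, mainly in Dll1-3, and on opposite sides for Mxi1. Mnt, a broadly expressed antagonist of Myc, had log2 signals of 9.80 and 10.24 in Dll1-3 and 10.63 and 10.71 in Dll1-5, against 11.47 and 11.72 in the wild type beside Dll1-3 and 11.67 and 11.67 in that beside Dll1-5. Every mutant signal lay below every wild-type signal. The ratios of its probe (chr11:74571072-74571131) were -1.67 and -1.48 in Dll1-3 (2.98-fold lower than wild type) and -1.03 and -0.96 in Dll1-5 (2.00-fold lower). Mnt averaged -1.29 over both lines (SD 0.41, n = 2 lines; limma adjusted p = 0.0909). One of the 4 ratios fell just short of 2-fold, which kept Mnt from the count of genes past 2-fold on all arrays.

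Mxd1, the repressor first described as Mad1 and linked to differentiation, had log2 signals of 8.10 and 8.12 in Dll1-3 and 8.62 and 8.72 in Dll1-5, against 9.29 and 9.33 in the wild type beside Dll1-3 and 9.34 and 9.37 in that beside Dll1-5. The groups did not overlap. The ratios of this probe (chr6:87081741-87081800) were -1.20 and -1.20 in Dll1-3 and -0.72 and -0.65 in Dll1-5, and they averaged -0.94 (SD 0.37, n = 2 lines; limma adjusted p = 0.112). The other Mxd1 probe (chr6:87085302-87085361), which had log2 signals of 6.78 to 6.96 in mutant and 6.83 to 6.90 in wild-type RNA, did not share this, with -0.03 and 0.10 in Dll1-3 and 0.04 and -0.12 in Dll1-5. The Mxd1 difference therefore rests on 1 of 2 probes.

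Mxd4, another Mxd repressor, showed the widest gap between the lines. Its brightest probe (chr5:32662526-32662585) had log2 signals of 8.31 and 8.20 in Dll1-3 and 9.62 and 9.54 in Dll1-5, against 10.05 and 10.03 in the wild type beside Dll1-3 and 10.13 and 10.03 in that beside Dll1-5. The ratios were -1.74 and -1.84 in Dll1-3 (mean -1.79 ± 0.05, 3.46-fold lower than wild type) and -0.51 and -0.50 in Dll1-5 (mean -0.50 ± 0.01, 1.42-fold lower). Over both lines Mxd4 averaged -1.15 (SD 0.91, n = 2 lines; limma adjusted p = 0.231). A second probe (chr5:32665997-32666056) had -1.29 and -1.22 in Dll1-3 and -0.56 and -0.62 in Dll1-5, the same order of lines. The third (chr5:32669346-32669405) stayed near 0, with means of -0.16 in Dll1-3 and 0.00 in Dll1-5.

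Mxd3, a member of the family that is expressed in cells in S phase, was the one repressor at least 2-fold above wild type on both arrays of a line. Its log2 signals were 9.15 and 9.12 in Dll1-3 and 7.94 and 7.89 in Dll1-5, against 7.92 and 7.97 in the wild type beside Dll1-3 and 7.84 and 7.76 in that beside Dll1-5. Dll1-3 stood above all others, while Dll1-5 lay within the range of the 4 wild-type signals. The ratios of the probe (chr13:53934762-53934936) were 1.22 and 1.15 in Dll1-3 (2.28-fold) and 0.10 and 0.13 in Dll1-5. Its second probe (chr13:53934509-53934568) had 1.44 and 1.36 in Dll1-3 and 0.36 and 0.20 in Dll1-5, so both probes placed Dll1-3 higher. Mxd3 averaged 0.65 over both lines (SD 0.76, n = 2 lines; limma adjusted p = 0.365).

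Mxi1, the repressor also called Mxd2, had log2 signals of 8.41 and 8.44 in Dll1-3 and 9.39 and 9.32 in Dll1-5, against 8.97 and 9.06 in the wild type beside Dll1-3 and 9.09 and 9.18 in that beside Dll1-5. Dll1-3 lay below its wild type and Dll1-5 above. The ratios of this probe (chr19:52940439-52940498) were -0.56 and -0.61 in Dll1-3 and 0.31 and 0.14 in Dll1-5, so that the mean of -0.18 (SD 0.57, n = 2 lines; limma adjusted p = 0.730) describes neither line. A second probe under the name Mxi1 (chr19:52938224-52938283) is listed on the opposite strand and had log2 signals of only 6.24 to 7.02. It stayed near 0, with means of 0.02 in Dll1-3 and -0.06 in Dll1-5.

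**Figure D2:**
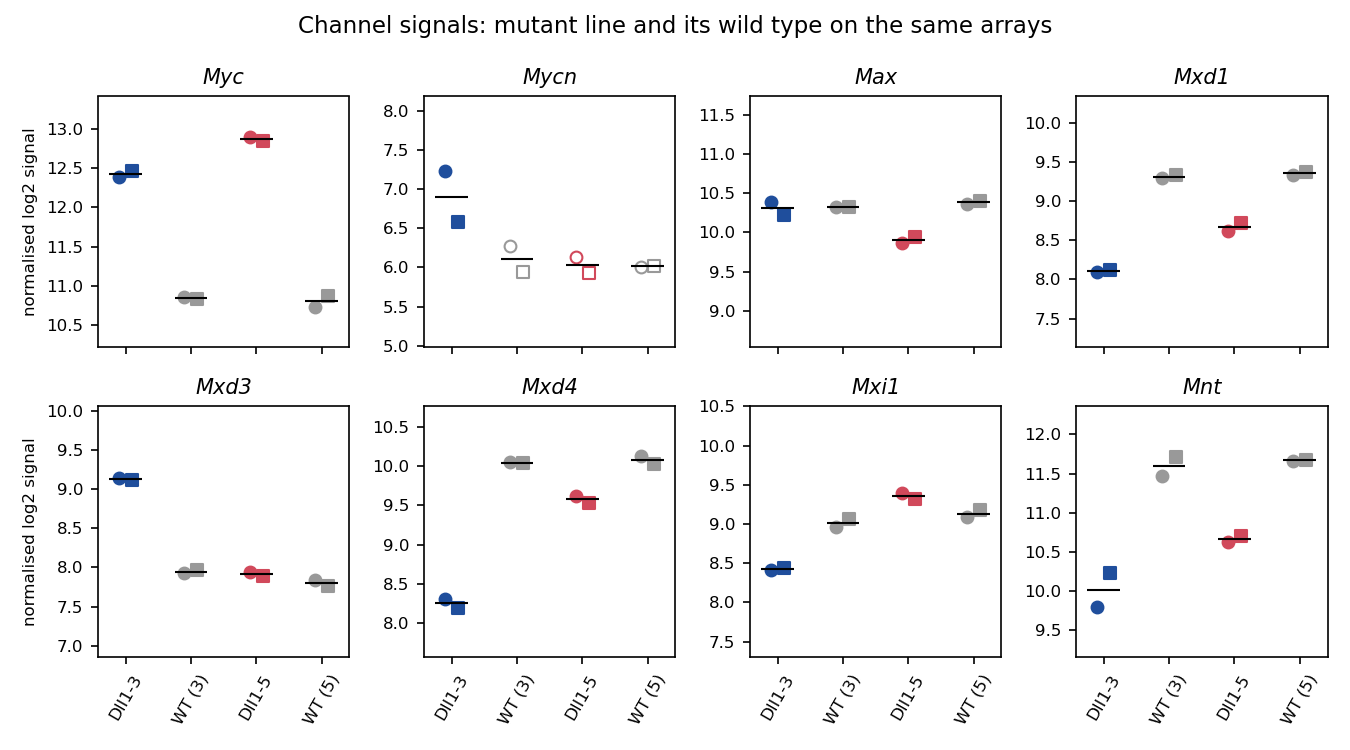
Normalised log2 signal of the probe that represents each gene, in each mutant line and in the wild type of the same arrays (WT (3) beside Dll1-3, WT (5) beside Dll1-5; circles, replicate 1; squares, replicate 2; bars, means; open symbols, not well above background); every panel spans the same number of log2 units, and the level of one gene is not comparable with that of another. The 4 wild-type signals of Myc lie between 10.73 and 10.87, below its mutant signals, and Mycn is filled in Dll1-3 alone.

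**Figure D3:**
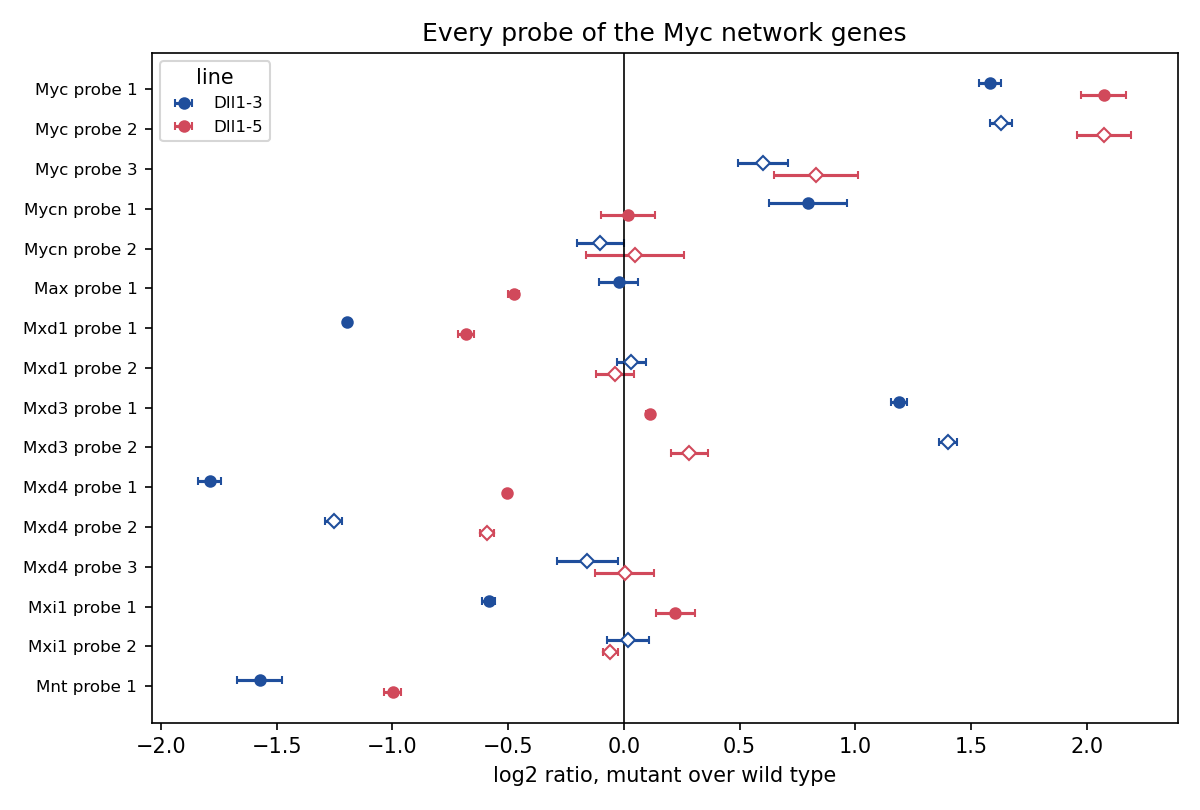
Mean log2 ratio of mutant over wild type of each of the 16 probes in Dll1-3 (blue) and Dll1-5 (red); filled circles mark the probe that represents the gene, and bars reach to the dye-swapped arrays. All 3 Myc probes and both Mxd3 probes share a direction, while Mxd1, Mxi1, Mxd4 and Mycn each have a probe near 0.

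Counted together, none of the 8 members passed limma's test at an adjusted p of 0.05, where the background was 0% of 23097 genes, and 6343 genes had an unadjusted p under 0.05. At that unadjusted level, which 27.5% of all genes met, 1 member was higher in the mutants (Myc; background 12%) and 2 were lower (Mxd1 and Mnt; background 15.5%). At least 2-fold the same way on all 4 arrays was met by Myc, 1 of 8 against 1.68% of all genes higher, and by no member on the lower side, where 2.73% of genes met it (4.41% either way). Within Dll1-3, Myc and Mxd3 were at least 2-fold higher on both arrays (2 of 8; background 4.44%), and Mxd1, Mxd4 and Mnt at least 2-fold lower (3 of 8; background 6.08%). These Dll1-3 counts were 1 higher and 0 lower with median centring in place of loess, a setting for which the share of all genes is not given here. Within Dll1-5 the count was 1 higher, Myc (background 3%), and 0 lower (background 3.67%). The sign was the same on all 4 arrays for 5 of 8 members, against 49.7% of all genes. Members had a median ratio of -0.22, where all genes had 0.01. Mycn is among the 8 in these counts, although the probe that represents it passed the filter through Dll1-3 mutant RNA alone.

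The lines were then set side by side. The probe that represents Mycn was detected in neither channel of the Dll1-5 arrays and passed the filter through Dll1-3 mutant RNA alone. The lines of Mycn were therefore not compared. For the other 7 members both arrays of one line lay beyond both arrays of the other, which held for 52.9% of all genes. Dll1-5 was above Dll1-3 for 5 of them, Myc, Mxd1, Mxd4, Mxi1 and Mnt (background 28.6%), and below it for 2, Max and Mxd3 (background 24.3%). With median centring in place of loess 2 of 8 members, Mycn included, had the lines apart. The share of all genes with that setting is not given here, so this count has no background beside it. The differences of Dll1-5 minus Dll1-3 were 1.28 for Mxd4, 0.81 for Mxi1, 0.57 for Mnt, 0.52 for Mxd1, 0.49 for Myc, -0.45 for Max and -1.08 for Mxd3. With 1 pooled replicate a line these have no test against the spread between replicates. A fit that takes the 4 arrays as separate samples, and so counts repeats of a pool as replicates, gave these 7 members adjusted p-values from 0.00239 for Mxd4 to 0.0439 for Max (limma), and called 4182 of 22914 genes. The ratio of Myc was the greater in Dll1-5, while those of Mxd1, Mxd4 and Mnt were further from 0 in Dll1-3.

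Of the other genes of the Max and Mlx network, 0 of 11 were 2-fold on all 4 arrays (4.41% over all genes). At an unadjusted p under 0.05 there was 1 higher and 0 lower (12% and 15.5% over all genes). Their median was 0.21, where all genes had 0.01. Mycbp, which binds the Myc amino terminus, was that 1 gene, at 0.74 (SD 0.10, n = 2 lines; limma adjusted p = 0.0789), although its other probes were at 0.17 and 0.22. Mycbp2, a large ubiquitin ligase of neurons named for Myc binding, was at -1.81 in Dll1-3 and -0.31 in Dll1-5. Mlx, which takes the place of Max for the glucose-sensing factors, was at 0.41, and those factors, Mlxip and Mlxipl, were at -0.40 and -0.11. Mga, which pairs with Max and holds a T-box domain, was at 0.21. The E-box factors Usf1, Usf2 and Tfap4 were at -0.38, 0.04 and 0.29, and the Myc relatives Bmyc and Mycs at 0.38 and 0.24. For Mlx, Mlxipl, Usf2 and Tfap4, 1 of 2 probes had the opposite sign.

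Genes that cooperate with either side had medians near 0. Of 24 cofactors of Myc and corepressors of Mxd proteins, at an unadjusted p under 0.05, 5 were higher and 4 lower (12% and 15.5% over all genes), with a median of -0.02. The largest ratios were those of Ruvbl2 and Ruvbl1, paired helicases that bind Myc, at 1.23 (1.75 in Dll1-3 and 0.70 in Dll1-5) and 0.68. Of 20 genes that set the stability of Myc protein, 6 were higher and 7 lower at that level (12% and 15.5% over all genes), and the median was 0.08. Aurka, a mitotic kinase that stabilises N-Myc protein, was 2-fold higher on all 4 arrays, at 1.85 (SD 0.21, n = 2 lines; limma adjusted p = 0.0755). Skp2, a ubiquitin ligase subunit that acts on Myc, was at 1.68 in Dll1-3 and 0.50 in Dll1-5.

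Textbook targets of Myc were read as 3 lists of activated genes and 1 of repressed genes, chosen with earlier results of these data known. All 45 tested genes of ribosome biogenesis (46 were listed) had a positive mean ratio, from 0.16 to 2.06, with a median of 0.94 (1.03 in Dll1-3 and 0.81 in Dll1-5), where all genes had 0.01. Of them 13 were at least 2-fold higher on all 4 arrays and 0 lower, and 38 were higher at an unadjusted p under 0.05. Over all 23097 genes 12037 were positive, 1.68% were 2-fold higher on all 4 arrays and 2.73% lower, and at that unadjusted p 12% were higher and 15.5% lower; the metabolic, cell cycle and repressed lists have the same background. Lyar, a nucleolar regulator, had 2.08 and 1.84 in Dll1-3 and 2.33 and 2.00 in Dll1-5. Ppan, a factor of large subunit assembly, averaged 1.97 and Rrs1, another, 1.70 (SD 0.07 and 0.16, n = 2 lines). Pa2g4 averaged 1.67 with its other probe at 0.60. None of the 45 passed the adjusted threshold.

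Metabolic and translation targets had a median of 0.60, and 39 of 49 were positive. In this list 6 were 2-fold higher on all 4 arrays and 0 lower, and at an unadjusted p under 0.05 the count was 29 higher and 2 lower. Mthfd2, a mitochondrial enzyme of folate metabolism, had 2.59 and 2.31 in Dll1-3 and 1.80 and 1.66 in Dll1-5. Hk2, the hexokinase that Myc activates in tumours, averaged 1.99, Eif4ebp1, an inhibitor of cap-dependent translation, 1.79, and Ppat, the first enzyme of purine synthesis, 1.68. The second Eif4ebp1 probe was at 0.89.

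Cell cycle targets had a median of 1.13 (1.35 in Dll1-3 and 0.91 in Dll1-5), with 29 of 31 positive, 9 at least 2-fold higher on all 4 arrays and 0 lower. Ccnd2, cyclin D2, had 2.91 and 2.61 in Dll1-3 and 2.44 and 2.19 in Dll1-5, and its other probes were at 2.60 and 2.92. Cks2, a subunit of cyclin-dependent kinase complexes, averaged 2.11, Ccnd1, cyclin D1, 1.97 and Cdca7, a Myc target with a role in chromatin remodelling, 1.92 (SD 0.07, n = 2 lines).

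The list of genes that Myc is known to repress lay on both sides of 0. Its median was 0.19, with 4 of 20 genes at least 2-fold higher on all 4 arrays and 2 lower. Gadd45a, a growth arrest and DNA damage gene, had 3.37 and 3.05 in Dll1-3 and 3.12 and 2.84 in Dll1-5. Ndrg1, a stress-responsive gene, averaged 2.37 (3.64 in Dll1-3 and 1.10 in Dll1-5), with wild-type RNA well above background on 2 of 4 arrays. On the other side Timp3, an inhibitor of metalloproteinases, averaged -3.05 and Ndrg2, a gene of glia, -2.28. No gene of any list passed the adjusted threshold.

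**Figure D4:**
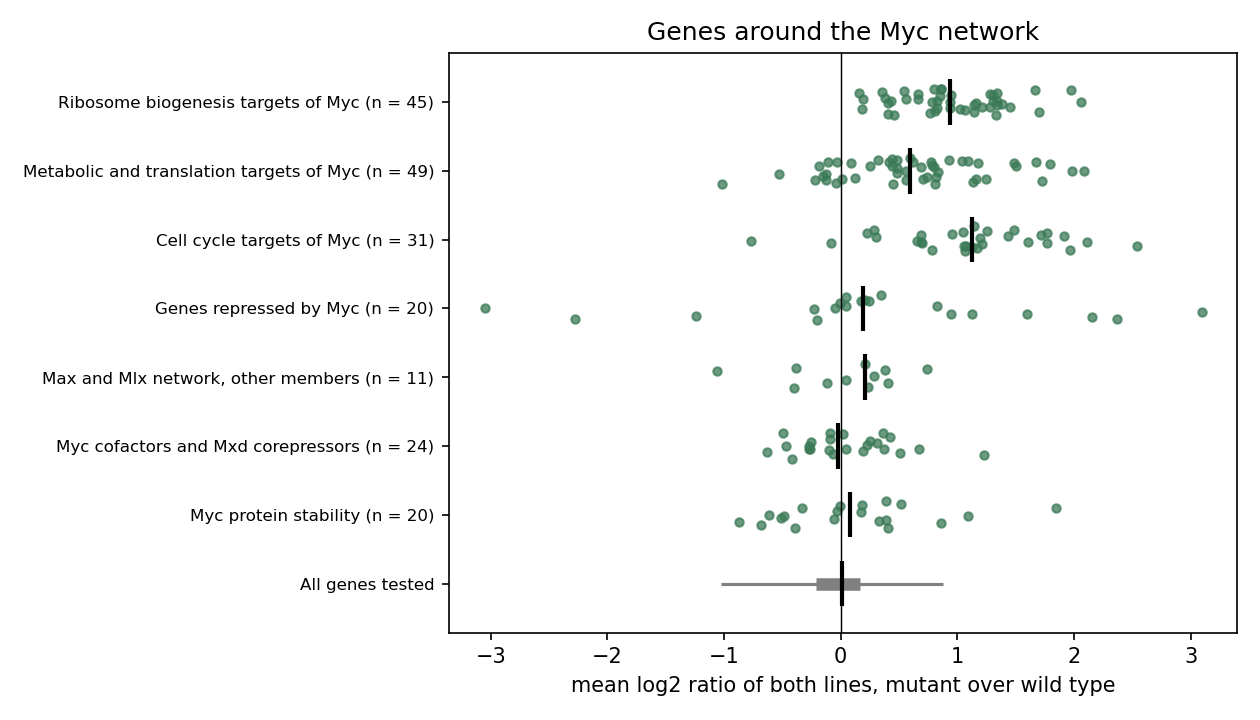
Mean log2 ratio of both lines, mutant over wild type, of each gene in the 7 lists (points; bars, list medians), with all genes tested below (thick line, 25th to 75th percentile; thin line, 5th to 95th). The ribosome biogenesis genes all lie above 0 and the cell cycle list has the highest median, 1.13, while genes repressed by Myc spread to both sides.

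E-boxes were searched upstream of these targets in the same windows. CACGTG was in 11 of 42 metabolic and translation genes (26.2%), 4 of 25 cell cycle genes (16%) and 3 of 39 ribosome biogenesis genes (7.69%), against 8.72% of tested genes. Ribosome biogenesis had a lower share than the metabolic list and a higher median. Whether shares and medians are related was not tested. Cdk4, a cell cycle kinase, Eif4e, the cap-binding factor, and Ldha, lactate dehydrogenase, each held 2 or more E-boxes in a single window, and one 30-base stretch of each is shown with CACGTG in capitals (chr10:127063351-127063380, chr3:138527192-138527221 and chr7:46845744-46845773, all on the plus strand). Rrn3, a factor of RNA polymerase I initiation, held 2 as well (chr16:13780639-13780668, plus strand). These 4 genes were picked for their sequence, after their values were known.
Cdk4: atggcagccagtCACGTGccacacagcgta
Eif4e: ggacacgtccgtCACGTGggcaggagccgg
Ldha: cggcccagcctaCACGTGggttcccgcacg
Rrn3: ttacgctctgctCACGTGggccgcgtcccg
Cdk4 was at 0.67 in Dll1-3 and 0.71 in Dll1-5, Ldha at 0.95 in Dll1-3 and 0.59 in Dll1-5, and Eif4e at 1.34 in Dll1-3 and -0.09 in Dll1-5. Rrn3 was at 0.30 in Dll1-3 and 0.07 in Dll1-5.

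Genes whose ratios lay nearest to a member's over the 4 arrays were found by Euclidean distance in log2 units, for each member past 2-fold in a line. Bid, a Bcl2 family protein of apoptosis, was nearest to Myc at a distance of 0.31, with 1.57 and 1.36 in Dll1-3 and 2.05 and 1.91 in Dll1-5, followed by H4f16 and Papola. Abca5, Dock11 and Ctnnbip1 were nearest to Mxd1 (0.062 to 0.10), and Marchf6, Ccdc34 and Gas2 to Mxd3 (0.10 to 0.15). Slc25a18, S100b and Rtl5 were nearest to Mxd4 (0.21 to 0.22). Of these, S100b is an astrocyte marker. Nearest to Mnt were Thnsl2, Akr1c19 and Podxl2 (0.074 to 0.13). A small distance over 4 arrays of 2 lines describes these values only.

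Markers of the cell types a neurosphere can hold were read beside these results. All 8 neural stem and radial glia markers were well above background in wild-type RNA on all 4 arrays, and 7 of 8 in mutant RNA. Their mean log2 signal ranged from 10.77 to 10.93 in mutant and 11.51 to 11.73 in wild-type RNA, with Vim at -0.45. Fabp7 was at -0.74 in Dll1-3 and 0.22 in Dll1-5. In the same list Sox2 was at -1.46 and Pax6 at -2.57, both named after their values were seen. Neuron markers averaged 7.54 to 7.83 in mutant and 8.32 to 8.43 in wild-type RNA (7 genes, 6 detected on all arrays in each), and Map2 and Tubb3 were at -1.99 and -1.01. The median ratio of this list was -0.18, with 2 genes positive and 5 negative. Dcx, named after its values were seen, was at -1.74. Rbfox3, Snap25, Elavl4 and Syp, also named after their values were seen, lay near 0, at 0.08, 0.09, -0.03 and -0.18. Their mean log2 intensities were only 6.34 to 6.74, near the detection floor, where the background offset compresses ratios. Their ratios therefore do not show that these genes were unchanged. Astrocyte markers averaged 8.60 to 8.96 in mutant and 9.43 to 9.69 in wild-type RNA (6 of 7 detected on all arrays in each), with Slc1a3 at -1.69 and S100b at -1.20. In that list 5 genes were negative and 2 positive, Gjb6 at 0.28 and Aqp4 at 0.08, both named after their values were seen. Both were dim as well, with mean log2 intensities of 6.57 and 7.03. Oligodendrocyte lineage markers averaged 8.50 to 9.02 in mutant and 9.11 to 9.15 in wild-type RNA (7 of 8 detected on all arrays in mutant and 6 of 8 in wild-type RNA), and Olig2 was at -0.52. Olig1 was at -1.16 in Dll1-3 and 0.04 in Dll1-5. Cspg4, a marker of oligodendrocyte progenitors named after its values were seen, went the other way, with 2.05 and 2.06 in Dll1-3 and 2.97 and 3.28 in Dll1-5. The mean signals of these 4 lists were thus lower in mutant RNA, as were those of Mnt, Mxd1 and Mxd4, and their part in the results was not tested. Microglia and blood markers were near the detection floor, at 6.37 to 6.51 in mutant and 6.37 to 6.45 in wild-type RNA, with Itgam well above background on no array and Csf1r and Cx3cr1 both at 0.07. Endothelial and fibroblast markers were at 6.63 to 6.74 in mutant and 6.58 to 6.72 in wild-type RNA. Pecam1 among them was detected on 0 arrays in mutant and 2 in wild-type RNA, and Col1a2 and Tek were at 0.03 and 0.09.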

How the data were processed

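Neurosphere RNA was measured on 4 two-colour arrays of 43790 spots, 2256 of them controls. The authors deposited scanned intensity values from Agilent Feature Extraction 8.1.1.1, per the submitters' processing notes. Per the file headers the scans also hold background flags and the software's own log10 ratio of Cy5 over Cy3. Values that the authors deposited for the series as a whole are log10 as well, and against the scans (r from -0.962 to -0.954) they run wild type over mutant. Their medians by array were -0.03 to 0.01, how they were centred is not known, and they served as an alternative only.

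Signals were corrected with normexp (offset 50), which compresses the ratios of dim genes, and normalised within arrays by loess (span 0.3) in limma 3.58.1 under R 4.3.3 with the data.table package (1.17.8); channel levels also had Aquantile. Control and outlier spots (27 to 115 an array) were left out, with weight 0 in loess. A probe was kept where either RNA was well above background on both of a line's arrays (34434 of 41174 probes). Genes were read from their brightest probe (23098 genes, 23097 tested). RefSeq named them by accession (13746), symbol (2475) or synonym (1361), and otherwise the file's name was used (5516). The design text describes pools of 3, each hybridised in both dye orientations, so each line entered as the average of its arrays. The test of the averages of both lines against 0 used lmFit and eBayes from limma, with 1 residual and 1.64 prior degrees of freedom, and Benjamini-Hochberg adjustment over all genes. P-values measure the spread between the 2 line means, as moderated by eBayes. If both lines were set against the same wild-type pool, differences among such pools do not enter that spread. Whether they were is not settled. No slide held over 1 array, so slides could not be compared. The replicate number is the dye orientation; arrays with the same number deviated together (r = 0.70).

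Genes were named by rule: all members, Dll1, up to 4 genes of each list with the largest mean among those 2-fold on all 4 arrays (up to 2 of the largest where fewer were), all other network genes, the 3 nearest genes to each member past 2-fold in a line, and the 2 brightest markers of each list. Members and lists were chosen with earlier results of these data known. Promoter searches and figures used Python 3.11.15, pandas 2.3.3 and matplotlib 3.10.9. Alternatives covered background correction, source of the ratios, normalisation, filters, probes, moderation, replicate unit and each array left out. A planned comparison of the members' proteins was not run.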

Additional observations from a re-analysis of the deposited data

Results flagged for a closer look

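Mxi1 was the one member whose lines moved in opposite directions on all their arrays, with a mean log2 ratio of -0.58 in Dll1-3 and 0.22 in Dll1-5. That difference was not tested against the spread between replicates, since each line is 1 pooled replicate. A fit to the single arrays, in which repeats of a pool pass for replicates, was also run, and there the difference of 0.81 had an adjusted p of 0.00858 (limma). The other Mxi1 probe was at 0.02 in Dll1-3 and -0.06 in Dll1-5. It is listed on the opposite strand and was dim, with log2 signals of 6.24 to 7.02, so it may not measure the same transcript.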

How the results depend on the processing

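No member changed sign under the alternatives run (19 for each member, and 18 for Mycn, which the strictest filter on dim probes dropped), and mean ratios ranged from 1.46 to 2.10 for Myc, -1.33 to -1.08 for Mnt, -1.10 to -0.47 for Mxd1, -1.28 to -0.72 for Mxd4 and 0.19 to 1.45 for Mycn. Several of these, such as the intensity trend and arrays taken as separate samples, change only the test. They left the mean ratios as they were and could not change a sign. The count of genes past the adjusted threshold depended on the fit. It was 0 as reported, 920 with an offset of 10, 336 with the scanner's ratios, 1203 with an intensity trend and, leaving out 1 array at a time, 0 to 1678, with 1678 without Dll1-3 replicate 1 and 1645 without Dll1-5 replicate 2. Members called were 0 as reported, 1 (Myc) with an offset of 10 or an intensity trend, and 0 to 2 leaving out 1 array, the 2 being Myc (adjusted p = 0.0353 and 0.0364, limma) and Mnt (0.0456 and 0.0460) without those same arrays; over the alternatives the adjusted p ranged from 1.97e-05 to 0.104 for Myc and 2.87e-05 to 0.116 for Mnt. Arrays taken as separate samples gave 11176 genes and 8 members, 14686 and 8 with the replicate number as a replicate block, and 6613 and 4 (Myc, Mxd1, Mxd4 and Mnt) with line as a random block; these count repeats of a pool as samples. Median centring in place of loess left 1 member 2-fold higher and 0 lower in Dll1-3, and 2 in place of 8 with the lines apart. The shares of all genes with that setting are not given here. Without Dll1-5 replicate 2, the Dll1-5 value of Mnt rested on 1 array, at -1.03, which is past 2-fold. A single array is a looser rule than both, and the share of all genes that met it is not given here. The median of genes repressed by Myc was 0.30 with the scanner's ratios and with the deposited table, 0.35 with median centring and 0.092 with the mean of probes. Median centring moved the medians of ribosome biogenesis to 1.15, metabolic genes to 0.85 and cofactors to 0.15. The cause of these shifts was not tested. Signal near background limits Mycn.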
